A study of Mus musculus with 17 samples.

Results

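Natural killer (NK) cells were followed in the 9 kidney libraries of a mouse single-cell RNA-Seq series. Members were chosen by the UMIs of 8 genes in each cell, so the levels of these genes are no finding. A cell counted as an NK cell when it held at least 1 unique molecular identifier (UMI, 1 captured RNA molecule) of Ncr1 or Klrb1c together, at least 2 UMIs of Nkg7 and Gzma together, and 0 UMIs of the CD3 genes Cd3d, Cd3e and Cd3g and of the B cell gene Cd79a. Only cells in which 200 genes or more were detected, and in which mitochondrial RNA made up 20% of UMIs or less, entered the rule. It chose 882 of 61744 such kidney cells (1.43%), out of 91829 kept cells in all 17 libraries of skin and kidney.

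All mice carried PDGFRb-Cre and the Z/EG reporter, which turns on green fluorescent protein (GFP) in cells that have had Cre activity and in their progeny, and were 8 weeks old. WT mice had no further transgene, whereas SARATg mice also overexpressed SARA, which is encoded by Zfyve9. By the study's account SARA was first described as an adaptor of the TGF-beta receptor, and later work found it dispensable for TGF-beta signaling. Mice of each genotype received a vehicle or aristolochic acid, a plant nephrotoxin that injures proximal tubules, by intraperitoneal injection (5 mg/kg, 3 times a week for 3 weeks). Digested kidneys were sorted for GFP and made into 10x Genomics 3′ v3 libraries, of which 3 were WT vehicle, 3 WT aristolochic acid, 2 SARATg vehicle and 1 SARATg aristolochic acid. By the study's account Cre activity in this model reaches leukocytes as well as pericytes, presumably through progenitors of the embryo, so NK cells can enter the GFP gate. The shares below are therefore shares of sorted GFP-positive cells and not of kidney tissue. The labels do not tie a library to 1 animal or to several, so p values measure the spread between libraries, which may in part be technical.

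A few features of the libraries touch the results and are given first. Kidney libraries held 28660151 to 137093834 UMIs and 4003 to 10057 kept cells, and NK cells had a median of 2484 to 4620 UMIs per library. The first and second WT vehicle libraries consisted mainly of proximal tubule cells (7154 of 8822 and 7626 of 10057 kept cells), whereas the other 7 libraries held 426 to 1737 tubule cells each. The transgene encodes human SARA, so mouse Zfyve9 is an indirect check of the genotype. It stood at 26.6, 32 and 10.4 counts per 1000000 UMIs (CPM) over all kept cells of the WT vehicle libraries and at 100.3 and 96.3 CPM in the SARATg vehicle libraries. The library labelled WT aristolochic acid 1 had 163 CPM, above both SARATg vehicle libraries, and the library labelled SARATg aristolochic acid 1 had 20.6 CPM, within the WT range, so Zfyve9 goes against these labels. Differences in shares and counts of called genes that use the first of them are also given without it, and most single genes are given library by library. The second enters no tested difference in the results below, but adds to the spread of the fits and enters 1 alternative fit of the closing section. For p53 target genes it is set against the other libraries with no test. The labels do not give the sex of the animals. Over all kept cells Xist, which is expressed from the inactive X chromosome of females, was at 1409.9 CPM in WT vehicle 2 and 1355 CPM in the library labelled SARATg aristolochic acid 1 and at 0.502 CPM or less in the other 7. The Y-linked genes Ddx3y, Eif2s3y, Kdm5d and Uty summed to 143 to 169 CPM in those 7 and to 0.0716 and 0.109 CPM in the first 2. WT vehicle was thus mixed in sex, whereas the WT aristolochic acid and SARATg vehicle libraries showed the male pattern, and the part of sex in the differences was not tested beyond leaving out WT vehicle 2. In proximal tubule cells the 16 p53 target genes read below summed to 1211 CPM in WT vehicle 3, against 333 and 324 CPM in WT vehicle 1 and 2. In the WT aristolochic acid libraries these sums were 1255, 1229 and 1552 CPM. Whether WT vehicle 3 can stand as an untreated control was not tested. Of the NK cells, 12 had a barcode that also occurs in another kidney library, and 47 were called doublets by a simulation-based score.

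NK cells are innate lymphocytes that kill stressed, infected or transformed cells by releasing perforin and granzymes, and that secrete interferon gamma and chemokines. They are held in check by inhibitory receptors for class I MHC molecules and triggered by activating receptors such as Ncr1 and Klrk1, and in the mouse many of these receptors belong to the C-type lectin-like Klr families. In the kidney they are a small population of circulating and resident cells.

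RUNX transcription factors are known regulators of NK cell identity and Runx3 was detected in the NK cells of every library, so the stretch before the start of 4 NK genes is shown with the RUNX core motif in capitals. The motif TGTGGT was searched on both strands (ACCACA where it lies on the other strand) in the 250 bases before each gene's start in RefSeq on GRCm38.p6. It was chosen after the levels were known. Shown are Ncr1, a gene of the rule, the activating receptor gene Klrk1 and the granule genes Prf1 and Gzmb. Ncr1 is read from chr7:4337465-4337714 on the plus strand, Klrk1 from chr6:129623865-129624114 on the minus strand, Prf1 from chr10:61297586-61297835 on the plus strand and Gzmb from chr14:56262335-56262584 on the minus strand.
Ncr1: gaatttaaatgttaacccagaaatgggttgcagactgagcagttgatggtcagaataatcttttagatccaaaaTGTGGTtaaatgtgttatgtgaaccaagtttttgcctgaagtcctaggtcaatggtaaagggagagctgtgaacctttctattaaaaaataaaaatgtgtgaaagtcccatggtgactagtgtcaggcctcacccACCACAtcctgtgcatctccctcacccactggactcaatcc
Klrk1: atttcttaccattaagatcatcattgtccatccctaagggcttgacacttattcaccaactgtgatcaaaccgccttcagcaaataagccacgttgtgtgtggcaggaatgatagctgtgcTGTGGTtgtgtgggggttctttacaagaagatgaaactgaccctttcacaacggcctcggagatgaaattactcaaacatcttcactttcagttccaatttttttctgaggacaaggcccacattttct
Prf1: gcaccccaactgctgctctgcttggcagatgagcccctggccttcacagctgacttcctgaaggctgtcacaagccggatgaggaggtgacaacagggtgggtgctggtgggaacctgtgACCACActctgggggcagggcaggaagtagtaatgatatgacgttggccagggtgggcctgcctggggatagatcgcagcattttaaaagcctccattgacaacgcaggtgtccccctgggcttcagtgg
Gzmb: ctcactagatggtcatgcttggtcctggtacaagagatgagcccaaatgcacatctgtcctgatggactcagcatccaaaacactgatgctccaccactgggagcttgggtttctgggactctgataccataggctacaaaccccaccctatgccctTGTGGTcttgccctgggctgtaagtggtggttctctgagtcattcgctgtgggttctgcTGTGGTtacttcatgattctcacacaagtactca

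The motif occurred 2 times in the Ncr1 stretch, 1 time in that of Klrk1, 1 time in that of Prf1 and 2 times in that of Gzmb. Of all 32851 upstream windows, 14.0% held it, and 14.2% of the 27025 genes with a window held it in their first one. The 4 genes whose UMIs the rule asked for, summed in pairs, held it (the 4 whose absence was required were not searched). So did 9 of the 23 genes with a window among the 30 genes most enriched in NK cells, which are described next. A match is a description of these letters and not a binding site.

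The label NK was checked against genes that the rule had not used. Set beside kidney T cells (17759), B cells (3313), macrophages (5794) and proximal tubule cells (21885) of the same libraries, the chosen cells carried the NK program in every library. Since the rule separates these populations, the levels are given as description with no test. Prf1, which encodes perforin, ranged from 664 to 1218 CPM over the 9 libraries in NK cells, beside a median of 37.3 CPM in T cells. Gzmb, a granzyme that triggers apoptosis in target cells, ranged from 405 to 1792 CPM beside 103 CPM in T cells. Eomes and Tbx21, the T-box factors that drive NK differentiation, stood at 80.1 to 175 CPM and 69.7 to 146 CPM beside 25 and 29.4 CPM in T cells. Klra4, a Ly49 receptor gene, ranged from 314 to 989 CPM and had a median of 0.409 CPM in T cells. Itga2, whose product CD49b marks circulating NK cells, ranged from 53.4 to 159 CPM, and S1pr5, a sphingosine phosphate receptor used to leave tissue, from 64.6 to 134 CPM. The genes of the rule itself were at 563 to 1189 CPM for Ncr1, 296 to 869 CPM for Klrb1c, 2369 to 4159.5 CPM for Nkg7 and 7515 to 16075 CPM for Gzma, as their choice required.

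**Figure D1:**
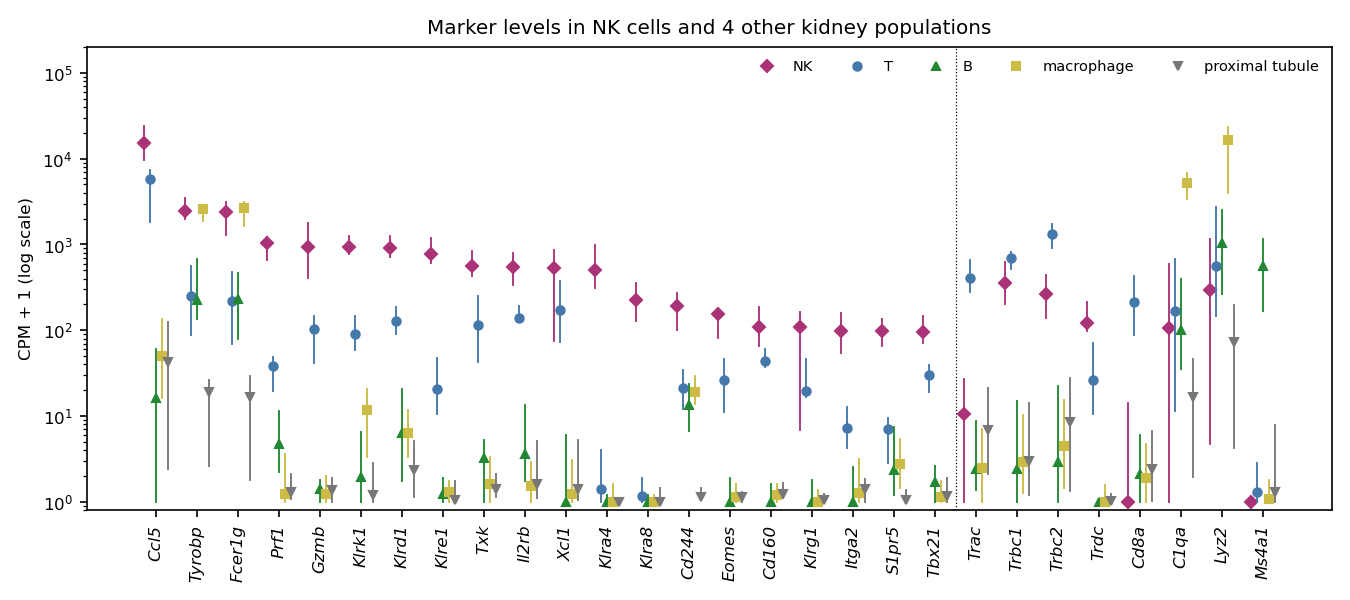
Levels (CPM plus 1, log scale) of NK marker genes not used by the rule, left of the dotted line, and of markers of other cells, right of it, in NK cells, T cells, B cells, macrophages and proximal tubule cells. Points are medians over the 9 kidney libraries and bars run from the lowest to the highest library. Prf1 in NK cells lies between 664 and 1218 CPM, while Trac stays at or below 26.4 CPM.

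Markers of other lymphocytes divided into those that were nearly absent and those that were not. Trac, the constant region of the T cell receptor alpha chain, was at 0 to 26.4 CPM in NK cells beside 405 CPM in T cells. Transcripts of the beta chain constant regions were present, Trbc1 at 199.7 to 622 CPM and Trbc2 at 138 to 445 CPM, beside medians of 689 and 1331 CPM in T cells. Trdc, the delta chain constant region, was higher in NK cells (96.8 to 214 CPM) than the T cell median of 25.1 CPM. Cd5, a T cell surface protein, had 0 UMIs in NK cells of every library. The 10 markers of type 1 innate lymphoid cells summed to 160.3 to 1422 CPM in NK cells and 1573 to 2133 CPM in T cells. Among them Itga1 was at 8.73 to 72.9 CPM beside 102 CPM in T cells and Cxcr6 at 7.1 to 158 CPM beside 451 CPM. The 10 markers also summed to 1287 to 3672 CPM in proximal tubule cells and 1908 to 3019 CPM in macrophages. A comparison with T cells cannot tell NK cells from type 1 innate lymphoid cells. The 7 markers of type 2 innate lymphoid cells summed to 40.1 to 143 CPM in NK cells and 130 to 205 CPM in T cells. Of these 7, 3 had 0 UMIs in NK cells of every library, Areg among them. Il10 also had 0 UMIs in every library.

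RNA of non-lymphoid cells was also counted in NK cells and differed between libraries. The 10 proximal tubule markers summed to 25990.4, 9672 and 1231 CPM in the WT vehicle libraries, 551, 735 and 247 CPM in the WT aristolochic acid libraries, 11944 and 1751 CPM in the SARATg vehicle libraries and 2177 CPM in the SARATg aristolochic acid library. None of the 10 was at 0 in every library. Without the cells called doublets the sums were 6486, 1546 and 229 CPM for WT vehicle and 12109.9 and 870.4 CPM for SARATg vehicle. The 10 macrophage markers summed to 33.9 to 7257 CPM, lowest in WT vehicle 1 and highest in the library labelled WT aristolochic acid 1, while WT aristolochic acid 2 and 3 had 200.4 and 482 CPM, below WT vehicle 2 and 3 at 2561 and 2981 CPM. Without doublet calls these sums were 44.2, 1919.8 and 260.1 CPM in WT vehicle and 3873, 200.4 and 482 CPM in WT aristolochic acid. Of 9 tested macrophage markers 4 were higher after aristolochic acid at an unadjusted p under 0.05 (3.96% of all genes were), with a median log2 fold change of 2.37, but 0 were higher without overlap. The 6 endothelial markers summed to 0 to 43.6 CPM in the WT libraries and to 219 and 163 CPM in the SARATg vehicle libraries, and to 22 and 34.2 CPM in the latter without doublet calls. The 6 neutrophil markers summed to 1634 CPM in SARATg vehicle 2 (66.7 CPM without doublet calls) and to 0 to 89.8 CPM in the other libraries. The 6 markers of the loop and distal tubule summed to 868, 241 and 4.36 CPM in WT vehicle (1259, 363 and 5.1 CPM without doublet calls) and to 7.1 to 200.3 CPM elsewhere. In SARATg 4 of 5 tested endothelial and 3 of 3 tested neutrophil markers were higher at an unadjusted p under 0.05, with median log2 fold changes of 6.59 and 5.34, and 4 of 5 tested loop and distal tubule markers were lower (1.61% of all genes were higher and 1.79% lower). The part of this RNA in the comparisons below was not tested except where a value without those cells is given. NK genes are counted against the same total of UMIs. The 19 NK markers not used by the rule summed to 20291, 20689 and 31652 CPM in WT vehicle and 31154, 32829.6 and 23844 CPM in WT aristolochic acid. Without doublet calls these sums were 27181, 29197 and 34928 CPM and 32415, 32829.6 and 23844 CPM.

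Few of the chosen cells lay at the count thresholds of the rule, but most held a UMI of a T cell receptor gene, on which the rule sets no condition. Of the 882 cells, 639 had a UMI of Trac, Trbc1 or Trbc2, and a stricter rule that bars these and asks for at least 2 receptor UMIs kept 225 cells (25.5%). Of the chosen cells, 60 had exactly 1 UMI of the receptor genes and 14 exactly 2 UMIs of the granule genes. Just outside, 17 cells met every condition but for a single granule UMI, 93 lacked a receptor UMI only, and 459 failed by a CD3 UMI only. Ptprc, the pan-leukocyte gene for CD45, was detected in 849 of the 882 cells, and 73 cells held at least 2 UMIs of the proximal tubule genes Slc34a1, Lrp2 and Miox.

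The 30 genes with the largest ratio of the NK median to the highest median among the other 4 populations (10 CPM added to each, rule genes left out) were led by receptors. Of these 30, 13 were Klr genes of 1 segment of chromosome 6, the NK gene complex, which spans chr6:128609227-131247362 on GRCm38 over 24 Klr genes. All 24 had at least 1 UMI in NK cells, and Klrg1 lies apart from them at chr6:122270596-122282882. The ratio was 48.7 for Klra4, 26.3 for Klre1, 23.3 for Klra7 and 22.8 for Klra8. Outside the complex the list held Prf1 (22.1), the mast cell protease gene Cma1 (16.9), the serpins Serpinb9b (11.9), Serpinb6b (8.6) and Serpinb9 (8.37), whose kind protect a killer cell from its own granzymes, the chemokine gene Ccl4 (7.52) and the ceramide glucosyltransferase gene Ugcg (6.84). Styk1, a kinase gene just beyond the segment at chr6:131299142-131353597, had a ratio of 7.64. The less familiar genes Phactr3 (56 CPM at the median, 0 in the highest other population), Gem (139 CPM) and Clnk (52.3 CPM) also belonged to the list.

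How often NK cells were found was asked first for the toxin and then for the transgene. NK cells made up 0.771%, 0.587% and 1.02% of kept cells in the WT vehicle libraries and 1.48%, 0.625% and 0.605% in the WT aristolochic acid libraries. The means were 0.793% ± 0.219 (SD, n = 3) and 0.902% ± 0.497 (SD, n = 3), and the groups overlapped (difference 0.108 percentage points, exact two-sided permutation test, p = 0.8, adjusted over 5 tests 0.8). Without the library labelled WT aristolochic acid 1 the difference was -0.179 percentage points. With that library kept it also turned negative in other settings. It was -0.0223 with a stricter rule that also bars T cell receptor UMIs, -0.113 with stricter cell filters and -0.121 without WT vehicle 1 and 2. Exact 95% intervals for single libraries ran from 0.599% to 0.976% in WT vehicle 1 and from 1.21% to 1.78% in the library labelled WT aristolochic acid 1, and cover counting error only.

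In the SARATg vehicle libraries NK cells made up 2.39% and 2.95% of kept cells, and 2.72% in the library labelled SARATg aristolochic acid 1. Both SARATg vehicle libraries lay above all WT vehicle libraries (mean 2.67% ± 0.396, SD, n = 2, difference 1.88 percentage points). The exact permutation test gave p = 0.2, the smallest that 2 against 3 libraries allow (adjusted 0.333). Leaving out 1 library at a time kept the difference between 1.6 and 2.16 percentage points, and under the stricter rule it was 0.438. Among Ptprc-positive cells the groups overlapped, with 4.33% and 5.49% in SARATg vehicle and 5.25%, 3.2% and 1.32% in WT vehicle. Ptprc-positive cells numbered 1277, 1814 and 5220 in the WT vehicle and 3139 and 3187 in the SARATg vehicle libraries, and the part of leukocyte content in the share of kept cells was not tested.

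Measured against leukocytes, NK cells were less frequent in the WT aristolochic acid libraries in the mean, but the difference did not exceed the spread. They made up 1.69%, 0.967% and 0.714% of Ptprc-positive cells there (mean 1.12% ± 0.506 against 3.26% ± 1.96 in WT vehicle, SD, n = 3 each, exact permutation p = 0.2, adjusted 0.333, smallest possible 0.1). Per 100 T cells there were 18.9, 13.6 and 2.07 NK cells in the WT vehicle libraries and 2.7, 1.26 and 0.938 in the WT aristolochic acid libraries. The log2 ratio of NK to T cells was -3.62 ± 1.72 (SD, n = 3) and -6.09 ± 0.789 (SD, n = 3), with an exact permutation p of 0.2 (adjusted 0.333). Without the library labelled WT aristolochic acid 1 the differences were -2.41 percentage points of Ptprc-positive cells and -2.9 on the log2 scale. Without WT vehicle 1 they were -1.14 percentage points, nearer to 0 than the -2.13 with all libraries, and -1.85 on the log2 scale. Under the stricter rule the former was -0.475. The third WT vehicle library, which is not dominated by tubule cells, lay inside the range of the aristolochic acid libraries in both measures. The p53 targets of its tubule cells, given at the start, were also near those of the aristolochic acid libraries. SARATg vehicle libraries had 14.9 and 22.2 NK cells per 100 T cells, and the library labelled SARATg aristolochic acid 1 had 8.39.

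**Figure D2:**
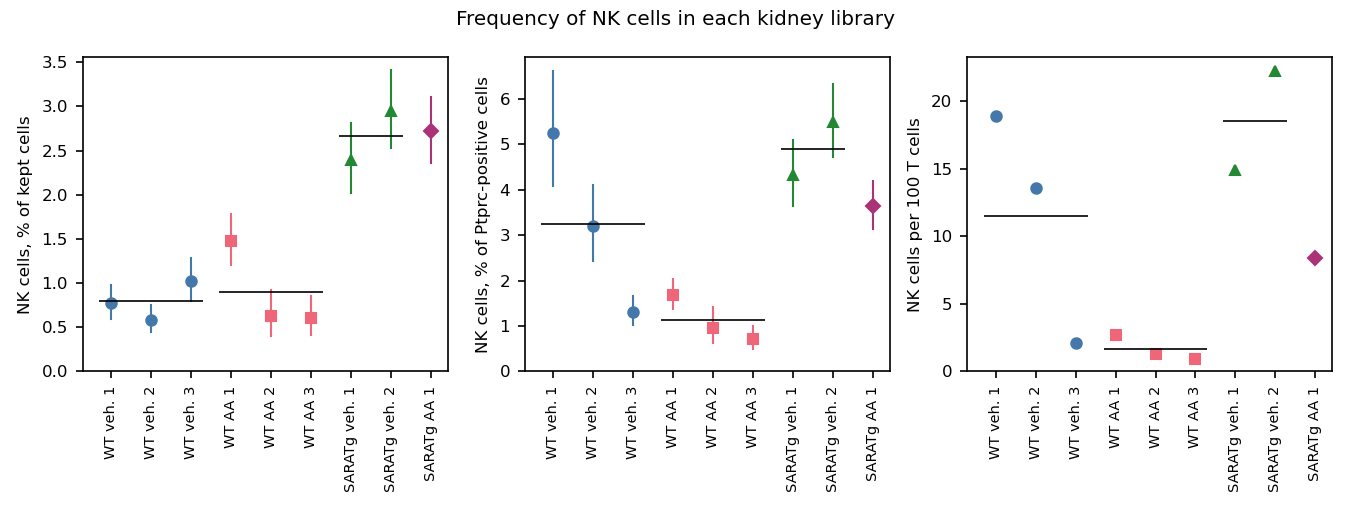
NK cells in each kidney library as a percentage of kept cells (left), as a percentage of Ptprc-positive cells (middle) and per 100 T cells (right), with exact 95% binomial intervals in the first and second panels and group means as lines. AA is aristolochic acid and veh. vehicle. Shares of kept cells are 0.587% to 1.02% in WT vehicle and 2.39% and 2.95% in SARATg vehicle, while the libraries labelled WT aristolochic acid 1 (1.48%) and SARATg aristolochic acid 1 (2.72%) are those whose Zfyve9 level goes against the label.

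Gene levels in NK cells were then compared between groups with UMIs summed per library over 6710 genes. With edgeR's quasi-likelihood test no gene passed an adjusted p of 0.05 for aristolochic acid against vehicle in WT mice or for SARATg against WT after vehicle (0% of genes called in both). At an unadjusted p under 0.05, 266 genes were higher (3.96%) and 616 lower (9.18%) after aristolochic acid, and 108 were higher (1.61%) and 120 lower (1.79%) in SARATg. The count of 882 genes after aristolochic acid was 297 of 4805 without doublet calls and 668 of 6445 without the library labelled WT aristolochic acid 1. It was 549 of 6837 without WT vehicle 2 and 1494 of 7106 without WT vehicle 3. The stricter rule left only the library labelled WT aristolochic acid 1 with at least 10 cells in its group, so no count is given. The count of 228 in SARATg was 198 without doublet calls, 197 without WT vehicle 2, 80 without SARATg vehicle 2 and 670 without WT vehicle 3. The libraries of the groups did not overlap for 5.23% of genes on the higher and 10.3% on the lower side after aristolochic acid, and for 9.78% and 7% in SARATg. Of the genes that were lower after aristolochic acid at that unadjusted p, 93.5% had a mean level in NK cells below their level over all kept cells, and 9 of the 10 proximal tubule markers were among them. In SARATg 117 of the 228 genes at that p, and 68.3% of the lower ones, were below the level over all kept cells. Among the 4067 genes at or above that level, 239 were higher and 40 lower after aristolochic acid (median log2 fold change 0.16), and 73 were higher and 38 lower in SARATg (median 0.05). DESeq2 on the same sums called 75 genes after aristolochic acid (4 higher, 71 lower) and 0 in SARATg. Without WT vehicle 3, which leaves the 2 tubule-rich libraries as the vehicle group, edgeR called 365 genes (55 higher, 310 lower). Without the library labelled WT aristolochic acid 1 it called 0 genes for the toxin and 1, Zfyve9, for SARATg. Since Zfyve9 itself had singled out that library, the latter call is no independent support. Simulated counts used the gene means over all 9 libraries and their UMI totals, so other-cell RNA that differs between libraries was left out. Genes changed by a log2 fold of 2 were recovered in 48% of cases for aristolochic acid (6157 genes tested) and 53.5% for SARATg (6116 genes tested). Changes of this size and smaller ones could thus be missed. No gene met the naming rule for tests across all genes, and the genes below come from lists of NK function and of cell markers, apart from Arl4d, Cd72 and Fabp4.

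Among activating receptors and adapters 15 of 16 listed genes could be tested, and 3 were higher and 0 lower after aristolochic acid at an unadjusted p under 0.05 (median log2 fold change 0.4, beside -0.02 over all genes and 0.16 over those at or above the level in all kept cells, of which 239 of 4067 were higher). These were Hcst, Cd2 and Sh2d1b1. The list also holds Ncr1 and Klrb1c, genes of the rule, so its counts and medians are not free of the choice of cells. Hcst, the adapter of Klrk1, had 366, 358 and 445 CPM in WT vehicle and 495, 815 and 652 CPM in WT aristolochic acid libraries, with no overlap (log2 fold change 0.81, SE 0.28, edgeR adjusted p = 0.273). Without doublet calls the summed NK markers rose from 20291 to 27181 CPM in WT vehicle 1 and from 20689 to 29197 CPM in WT vehicle 2. The part of this in the levels of Hcst, Klrd1 and Cst7 was not tested. Cd2, an adhesion receptor, had 181, 190.2 and 306 CPM and 265, 374 and 523 CPM in the same groups, which overlapped (0.86 on the log2 scale, adjusted p = 0.312 in edgeR). Klrk1 itself stayed within 764 to 1269 CPM in all 9 libraries, with log2 fold changes of 0.26 ± 0.26 (SE) for aristolochic acid and -0.06 ± 0.29 (SE) for SARATg. Tyrobp, the signaling adapter of several activating receptors, and Fcer1g, the adapter of Ncr1 and of the Fc receptor, ranged from 1965 to 3501 and 1275 to 3103 CPM. In SARATg 1 of 15 was higher and 0 were lower at an unadjusted p under 0.05 (median -0.06, beside -0.04 and 1.61% higher over all genes), namely Slamf7, a homotypic activating receptor, at 98.1, 105 and 74.2 CPM in WT vehicle and 117 and 234 CPM in SARATg vehicle (0.93 on the log2 scale, edgeR adjusted p = 1).

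Klrd1, which pairs with Klrc1 or Klrc2 into receptors for the nonclassical class I molecule Qa-1, was higher in every WT aristolochic acid library. It had 720.5, 719 and 903 CPM in the WT vehicle libraries and 1192, 1269 and 1210.4 CPM in the WT aristolochic acid libraries. The log2 fold change was 0.73 (SE 0.25, edgeR adjusted p = 0.269). Its activating partner Klrc2 had 389, 380.3 and 537 CPM and 319, 294 and 294 CPM, lower in every treated library (-0.43 on the log2 scale, edgeR adjusted p = 0.507). The inhibitory Klrc1 had 166, 124 and 236 CPM and 154, 227 and 176 CPM, with overlap. In SARATg vehicle Klrc1 stood at 276 and 293 CPM, above all WT vehicle libraries (0.7 on the log2 scale, edgeR adjusted p = 1). In the library labelled SARATg aristolochic acid 1 it was at 171 CPM, within the WT range.

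Among inhibitory receptors 10 of 18 listed genes could be tested, of which 2 were higher and 0 lower at an unadjusted p under 0.05 in each comparison (median log2 fold change 0.02 after aristolochic acid and 0.09 in SARATg), beside 3.96% and 1.61% of all genes on the higher side. Klra7, an inhibitory Ly49 receptor gene, had 234, 209 and 244 CPM in WT vehicle, 374, 374 and 505 CPM in WT aristolochic acid, 95.2 and 245 CPM in SARATg vehicle and 269.5 CPM in the SARATg aristolochic acid library. The WT groups did not overlap (0.97 on the log2 scale, SE 0.35, edgeR adjusted p = 0.274). Without doublet calls Klra7 stood at 298, 317 and 286 CPM in WT vehicle and 402, 374 and 505 CPM in WT aristolochic acid. Klra5, another inhibitory member, was found in few cells and had 0, 3.17 and 0 CPM in WT vehicle, 7.1, 13.4 and 17.6 CPM in WT aristolochic acid, 25.4 and 51.4 CPM in SARATg vehicle and 13.3 CPM in the SARATg aristolochic acid library. Both SARATg vehicle libraries lay above all WT vehicle libraries, whose values rest on 1 UMI (edgeR adjusted p = 0.928). Klra1 varied between libraries of 1 group, with 117, 19 and 21.8 CPM in WT vehicle, 109, 267 and 76.4 CPM in WT aristolochic acid and 28.5 and 130 CPM in SARATg vehicle. Klra3 and Klra9 ranged from 79.2 to 224 and from 123 to 383 CPM (log2 fold changes between -0.41 and -0.01 in both comparisons). Reads of the Klra genes can be shared between near-identical copies, so the split between members is uncertain. Checkpoint receptors were scarce, with Lag3 at 0 to 7.1 CPM and Pdcd1, Ctla4 and Havcr2 too low to be tested.

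**Figure D3:**
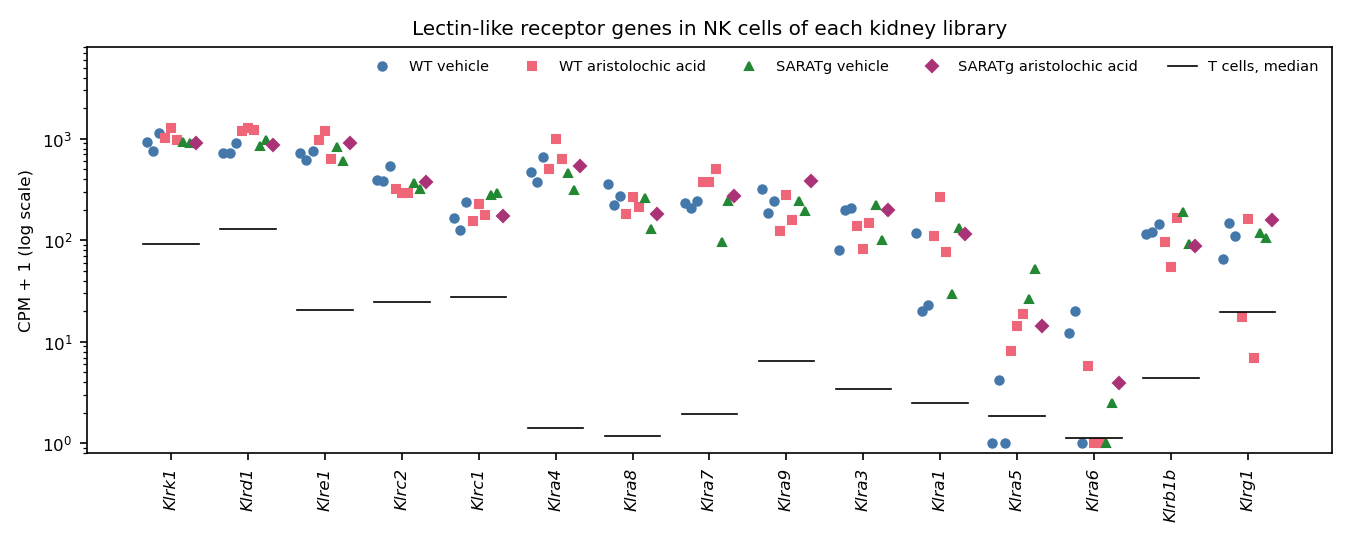
Levels (CPM plus 1, log scale) of 15 lectin-like receptor genes in NK cells, with 1 point for each of the 9 kidney libraries by group and a line at the median of T cells. Klrd1 lies at 719 to 903 CPM in WT vehicle and at 1192 to 1269 CPM in WT aristolochic acid libraries, and Klrg1 lies at 16.6 and 5.88 CPM in 2 of the latter.

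Individual NK cells expressed the Ly49 receptors in combinations. Of the 882 cells, 20.6% had no UMI of 8 Klra genes, 22.2% had 1 of them, 23.5% had 2 and 33.7% had 3 or more, at a median of 2934 UMIs per cell. At least 1 Klra4 UMI was seen in 33.1% to 76% of NK cells by library and in at most 1.14% of T cells and 0.12% of proximal tubule cells, which had a higher median depth (6491 to 12227 UMIs). Counting Klra4 and Klra8 as activating and the other 6 as inhibitory, 48% of NK cells held UMIs of both kinds, 24.9% only of inhibitory and 6.46% only of activating members. Klrc1 was seen in 44.1% of NK cells, and 7.03% had UMIs of neither Klra genes nor Klrc1. Klrc1 was seen in 53.5% and 59.1% of cells in the SARATg vehicle libraries, against 28.8% to 43.8% in the other 7 libraries, whose NK cells had median depths of 2484 to 4620 UMIs, and in at most 0.295% of proximal tubule cells. After each cell was thinned to 1000 UMIs, Klrc1 was seen in 32.6% of cells in both SARATg vehicle libraries and in 8% to 21.9% in the others. These are detected shares, and a cell with no UMI at this depth may still express the gene.

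The cytotoxic granule genes showed few differences between groups. The list holds Nkg7 and Gzma, genes of the rule, so its counts and medians are not free of the choice of cells. Of 14 tested genes of the list, 2 were higher and 0 lower after aristolochic acid at an unadjusted p under 0.05 (median log2 fold change 0.2, beside 3.96% of all genes and 239 of the 4067 at or above the level in kept cells), and 0 were higher and 1 lower in SARATg (median 0, beside 1.79% of all genes). Prf1 had 1034, 764 and 1218 CPM in WT vehicle, 1207, 1002 and 664 CPM in WT aristolochic acid, 998 and 1117 CPM in SARATg vehicle and 1108 CPM in the SARATg aristolochic acid library, and the groups overlapped (log2 fold change 0.01 ± 0.3 and 0.06 ± 0.33, SE). Gzmb spread more widely, with 936, 726 and 829 CPM in WT vehicle, 1069, 1069 and 405 CPM in WT aristolochic acid, 726 and 1792 CPM in SARATg vehicle and 1083 CPM in the SARATg aristolochic acid library. The lowest Gzmb level, 405 CPM, and the lowest Prf1 level, 664 CPM, were both in WT aristolochic acid 3. Cst7, which encodes cystatin F, an inhibitor of the proteases that activate granzymes, had 94.3, 105 and 105 CPM in WT vehicle and 179.8, 200.4 and 141 CPM in WT aristolochic acid. The WT groups did not overlap (0.86 on the log2 scale, SE 0.24, edgeR adjusted p = 0.243), and SARATg vehicle was at 108 and 112 CPM (0.12 on the log2 scale). Ctsw, a lysosomal protease of killer cells, was the second of these genes, with 464, 387 and 711 CPM and 677, 975 and 746 CPM and overlapping groups (0.67, adjusted p = 0.371 in edgeR). Fasl, the death ligand, stayed within 149 to 214 CPM. Gzmk, a granzyme of T cells and immature NK cells, was at 0 to 26 CPM. Granzyme genes have near relatives, so their reads may also be shared.

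Maturation of mouse NK cells runs from cells with Cd27 to cells with Klrg1, and the library labelled WT aristolochic acid 1 and WT aristolochic acid 3 stood apart from the other 7 in the share of cells with a UMI of either. A Klrg1 UMI was seen in 5.56% of NK cells in the former (6 of 108, exact 95% interval 2.07% to 11.7%) and in 3.12% in the latter (1 of 32, 0.0791% to 16.2%), against 19.1% to 42.4% in the other libraries. A Cd27 UMI was seen in 38% and 65.6% of cells there and in 9.95% to 26.1% elsewhere. Under the stricter rule given above none of the 32 cells of WT aristolochic acid 3 remained, against 15.7% in the library labelled WT aristolochic acid 1 and 16.2% to 40.8% in the other 7, and 28 of the 93 cells that failed the rule only by lacking a receptor UMI came from WT aristolochic acid 3. WT aristolochic acid 2 had 28% for Klrg1 and 16% for Cd27, inside the range of the vehicle libraries. NK cells of WT aristolochic acid 3 were the deepest, with a median of 4620 UMIs. At a depth of 1000 UMIs per cell the split was smaller. Cd27 was then seen in 20.4% and 18.8% of cells in these 2 libraries and in 4.23% to 14.1% in the others, with overlapping 95% intervals (13.2% to 29.2% in the first and 8.69% to 21.1% in SARATg vehicle 1). Klrg1 was then seen in 0.926%, 4% and 3.12% of cells in the WT aristolochic acid libraries, 1 cell in each, and in 5.88% to 18.7% in the others. Proximal tubule cells, which should lack both, had a Klrg1 UMI in at most 0.222% and a Cd27 UMI in at most 7.18% of cells. Only 2.04% of all NK cells held UMIs of both genes.

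**Figure D4:**
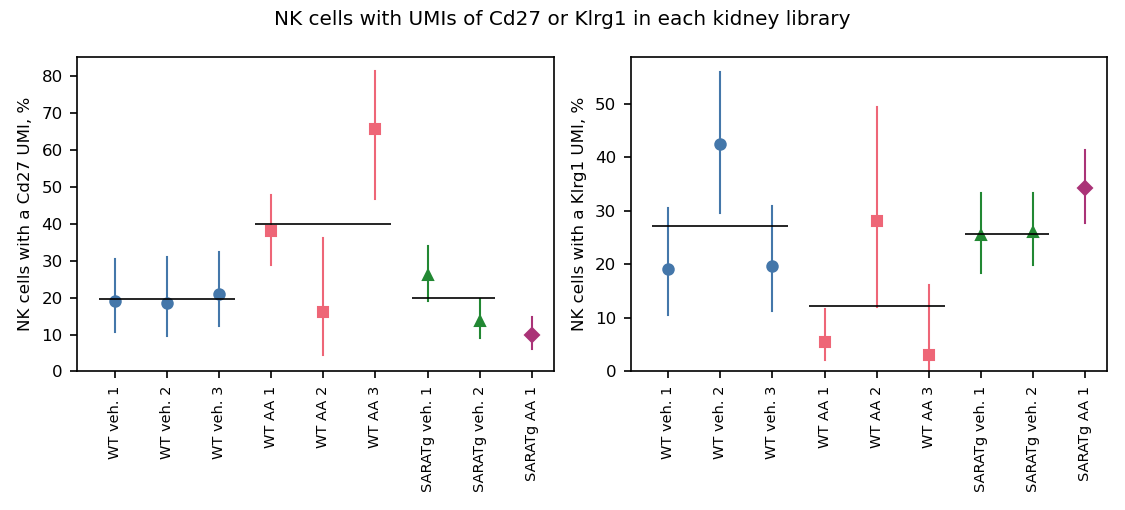
Percentage of NK cells with at least 1 UMI of Cd27 (left) and Klrg1 (right) in each kidney library, with exact 95% binomial intervals and group means as lines. AA is aristolochic acid and veh. vehicle. Klrg1 lies at 5.56% and 3.12% and Cd27 at 38% and 65.6% in 2 of the 3 WT aristolochic acid libraries.

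By level, Klrg1 stood at 64.1, 146 and 109 CPM in WT vehicle, 16.6, 160.3 and 5.88 CPM in WT aristolochic acid, 116 and 104 CPM in SARATg vehicle and 158 CPM in the SARATg aristolochic acid library. Since 1 aristolochic acid library was the highest of all, the groups overlapped (log2 fold change -1.42, SE 0.73, edgeR adjusted p = 0.436). Cd27 stood at 71.7, 44.4 and 78.6 CPM in WT vehicle, 159, 66.8 and 206 CPM in WT aristolochic acid, 92 and 46.9 CPM in SARATg vehicle and 44.2 CPM in the SARATg aristolochic acid library (log2 fold change 1.36 in WT, SE 0.43, edgeR adjusted p = 0.253). Without the library labelled WT aristolochic acid 1 these log2 fold changes were -0.69 for Klrg1 and 1.31 for Cd27. For Klrg1 it was -2.87 without WT aristolochic acid 2 and -0.85 without WT aristolochic acid 3. T cells had 15.6 to 22.1 CPM of Klrg1 and 79.8 to 176 CPM of Cd27 in the 6 WT libraries. A T cell receptor UMI was held by 91 of 108 NK cells in the library labelled WT aristolochic acid 1 and by 31 of 32 in WT aristolochic acid 3. Over all libraries 639 of 882 held one. The part of T cells in this split was not tested.

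Other maturation genes are given beside this split. Zeb2, a factor of late maturation, was lowest in WT aristolochic acid 3 (173, 534 and 70.5 CPM in the WT aristolochic acid libraries, 419, 358 and 192 CPM in WT vehicle, 499.6 and 411 CPM in SARATg vehicle). Cx3cr1, the fractalkine receptor of mature NK cells, was at 80.4, 147 and 17.6 CPM in WT aristolochic acid and 52.8, 76.1 and 105 CPM in WT vehicle. In SARATg vehicle it was at 151 and 171 CPM, above all WT vehicle libraries (1.05 on the log2 scale, edgeR adjusted p = 1), and in the library labelled SARATg aristolochic acid 1 at 150.2 CPM. Tcf7, a factor of early stages, had its highest level in WT aristolochic acid 3 (45, 80.2 and 135 CPM, against 30.2, 44.4 and 78.6 CPM in WT vehicle). Of the 10 late genes 0 were higher or lower after aristolochic acid at an unadjusted p under 0.05, and 1 was higher in SARATg (beside 1.61% of all genes), with medians of 0.02 and 0.22. Of the 11 early genes 1 was higher after aristolochic acid (Cd27, beside 3.96% of all genes) and 1 lower in SARATg (beside 1.79%). The latter was Emb, an early adhesion gene, with 121, 143 and 432 CPM in WT vehicle and 113 and 96.8 CPM in SARATg vehicle (-1.17 on the log2 scale, edgeR adjusted p = 1).

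Transcription factors of the NK lineage showed few differences. Of 18 tested, 1 was higher and 0 lower at an unadjusted p under 0.05 in each comparison (medians -0.01 and -0.04), beside 3.96% and 1.61% of all genes on the higher side, and in both it was Runx3. Runx3 had 185, 124 and 127 CPM in WT vehicle, 189, 267 and 317 CPM in WT aristolochic acid, 222 and 249 CPM in SARATg vehicle and 163 CPM in the SARATg aristolochic acid library. Both comparisons share the WT vehicle libraries. Against these the log2 fold change was 0.92 (SE 0.28, edgeR adjusted p = 0.251) after aristolochic acid and 0.71 (SE 0.3, adjusted p = 1) in SARATg. Eomes was at 102, 152 and 170.2 CPM in WT vehicle, 175, 174 and 170.4 CPM in WT aristolochic acid, 125 and 80.1 CPM in SARATg vehicle and 91.3 CPM in the SARATg aristolochic acid library. Tbx21 was at 98.1, 69.7 and 69.8 CPM in WT vehicle, 80.4, 93.5 and 129 CPM in WT aristolochic acid, 146 and 90.7 CPM in SARATg vehicle and 112 CPM in the SARATg aristolochic acid library. Neither passed an unadjusted p of 0.05 in either comparison. Klf2, a factor of lymphocyte circulation, was at 555 to 1403 CPM and Id2, which NK cells need for their development, at 617 to 1275 CPM.

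Chemokines and cytokines made by NK cells were led by Ccl5. Ccl3 and Ccl4 recruit monocytes and other leukocytes. Ccl3 stood at 174, 244 and 96 CPM in WT vehicle, 397, 134 and 270.3 CPM in WT aristolochic acid, 385 and 677 CPM in SARATg vehicle and 516 CPM in the library labelled SARATg aristolochic acid 1. Both SARATg vehicle libraries lay above all WT vehicle libraries (log2 fold change 1.64, SE 0.45, edgeR adjusted p = 1), and without doublet calls at 431 and 746 CPM against 226, 348 and 107 CPM. Under the stricter rule the log2 fold change was 0.06. T cells had 23.8, 13.9 and 20 CPM in WT vehicle and 5.99 and 13.2 CPM in SARATg vehicle, lower in both of the latter. Ccl4 stood at 358, 1347 and 371 CPM in WT vehicle, 1022, 534 and 629 CPM in WT aristolochic acid, 1216 and 1599.7 CPM in SARATg vehicle and 1847 CPM in the SARATg aristolochic acid library, with WT vehicle 2 between the SARATg vehicle libraries (1.04 on the log2 scale, edgeR adjusted p = 1). Without doublet calls Ccl4 stood at 447, 2049.6 and 433 CPM in WT vehicle and 1385 and 1765 CPM in SARATg vehicle, with WT vehicle 2 above both, and under the stricter rule its log2 fold change was -0.02. Without WT vehicle 2 it was 1.92 (edgeR adjusted p = 0.802). A single cell held at most 6.6% of the Ccl3 and 6.85% of the Ccl4 UMIs of all NK cells.

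Of 8 tested genes of this list, 0 passed an unadjusted p of 0.05 after aristolochic acid (median log2 fold change 0.5) and 1, Ccl3, was higher in SARATg (median 0.16, beside 1.61% of all genes). Ccl5, a chemokine for T cells and monocytes, ranged from 9642 to 23771 CPM with overlapping groups (log2 fold changes 0.3 and 0.13). Xcl1, which attracts cross-presenting dendritic cells, varied widely, with 528, 336 and 74.2 CPM in WT vehicle, 745, 361 and 869.6 CPM in WT aristolochic acid and 803 and 260.1 CPM in SARATg vehicle (1.25 and 0.78 on the log2 scale, edgeR adjusted p = 0.402 and 1). Ifng, the macrophage-activating interferon, was low at 64.1, 91.9 and 17.5 CPM in WT vehicle and 109, 0 and 76.4 CPM in WT aristolochic acid, where the 0 stands for no UMI and allows up to 40.1 CPM (3 counts). Csf2, a myeloid growth factor gene, and Tnf were at or below 25 and 29.4 CPM.

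Among cytokine and chemokine receptors 18 of 22 could be tested, and 1 was higher and 0 lower at an unadjusted p under 0.05 in each comparison (medians 0.35 and -0.08), beside 3.96% and 1.61% of all genes on that side. After aristolochic acid this was Il18r1, the receptor of the alarm cytokine interleukin 18, with 124, 158 and 153 CPM in WT vehicle and 151, 361 and 264 CPM in WT aristolochic acid (0.84 on the log2 scale, edgeR adjusted p = 0.293). The lowest treated library, the one labelled WT aristolochic acid 1, was inside the vehicle range. Its partner Il18rap stayed within 149 to 222 CPM. Il2rb, which receives interleukin 15, the survival factor of NK cells, had 369.7, 333 and 799 CPM in WT vehicle and 781, 681 and 529 CPM in WT aristolochic acid. In SARATg the higher gene was Cx3cr1, given above.

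TGF-beta restrains NK cells, and Zfyve9 encodes SARA, which SARATg mice overexpress. In NK cells Zfyve9 was at 3.77, 9.51 and 8.73 CPM in WT vehicle, 192 CPM in the library labelled WT aristolochic acid 1, 0 CPM in WT aristolochic acid 2 and 3, 168 and 147 CPM in SARATg vehicle and 4.42 CPM in the library labelled SARATg aristolochic acid 1. Without doublet calls it had 0 UMIs in all 3 WT vehicle libraries. The SARATg vehicle libraries lay above all WT vehicle libraries (log2 fold change 4.36, SE 1.12, edgeR adjusted p = 1), and the adjusted p was 0.0244 without the library labelled WT aristolochic acid 1. That library was singled out by its level of this same gene, so the latter p value is no independent support. As over all kept cells, both libraries named at the start stood on the side of the other genotype.

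The receptors and effectors of the pathway were present at low levels. Tgfbr2, the ligand-binding receptor, was at 23.5 to 66.8 CPM, Tgfbr1 at 17.6 to 44.4 CPM, the effectors Smad3 at 13.4 to 56.7 CPM and Smad4 at 52.9 to 93.5 CPM, and the inhibitor Smad7 at 63.4 to 118 CPM. Tgfb1, the ligand gene, had 86.8, 69.7 and 113 CPM in WT vehicle, 125, 134 and 99.9 CPM in WT aristolochic acid and 80.9 and 107 CPM in SARATg vehicle. Of 16 tested genes, Zfyve9 alone passed an unadjusted p of 0.05, on the higher side in both comparisons (medians -0.18 and -0.03, beside 3.96% and 1.61% of all genes). After aristolochic acid this rested on the library labelled WT aristolochic acid 1, since the other 2 treated libraries had 0 UMIs. Smad7, which TGF-beta signals induce, had 98.1, 63.4 and 74.2 CPM in WT vehicle and 104, 107 and 118 CPM in WT aristolochic acid, with log2 fold changes of 0.59 ± 0.27 (SE) after aristolochic acid and 0.27 ± 0.28 (SE) in SARATg.

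Class I MHC genes, whose products educate and inhibit NK cells, were tested for 14 of 15 members. In WT mice after aristolochic acid 3 were higher and 0 lower at an unadjusted p under 0.05, and 5 were higher without overlap (median log2 fold change 0.68, beside 3.96% and 5.23% of all genes), while in SARATg 0 passed (median 0.2). Without doublet calls the 15 genes summed to 6895, 6999.6 and 9654 CPM in WT vehicle and 9632, 8445 and 9131 CPM in WT aristolochic acid, which overlap. The 3 were H2-Q4 with 67.9, 66.6 and 96 CPM in WT vehicle and 121, 134 and 188 CPM in WT aristolochic acid, Tapbp, a peptide-loading chaperone, with 121, 69.7 and 105 and 163, 187 and 141 CPM, and Tap1, a peptide transporter, with 41.5, 50.7 and 30.6 and 68.6, 80.2 and 52.9 CPM (edgeR adjusted p = 0.268, 0.266 and 0.32). The classical genes H2-K1 and H2-D1 were at 1671, 1588 and 2889 and 1211, 1419.8 and 3182 CPM in WT vehicle and 2463, 2165 and 2444 and 2856, 2846 and 2779 CPM in WT aristolochic acid, and the tubule-rich WT vehicle libraries were the lowest.

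H2-Q7 split the libraries in another way. It was at 15.1, 307 and 292 CPM in WT vehicle, 700.4, 0 and 488 CPM in WT aristolochic acid, 409 and 449 CPM in SARATg vehicle and 446 CPM in the SARATg aristolochic acid library. WT vehicle 1 and WT aristolochic acid 2 were thus near or at 0 across a treatment boundary. T cells of the same 2 libraries had 10 and 12.7 CPM against 444 to 1505 CPM elsewhere, and macrophages 2.81 and 4.4 CPM against 30.7 to 178 CPM. H2-Q genes share reads with near-identical copies. H2-Q6 was also lowest in these libraries (18.9 and 40.1 CPM).

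**Figure D5:**
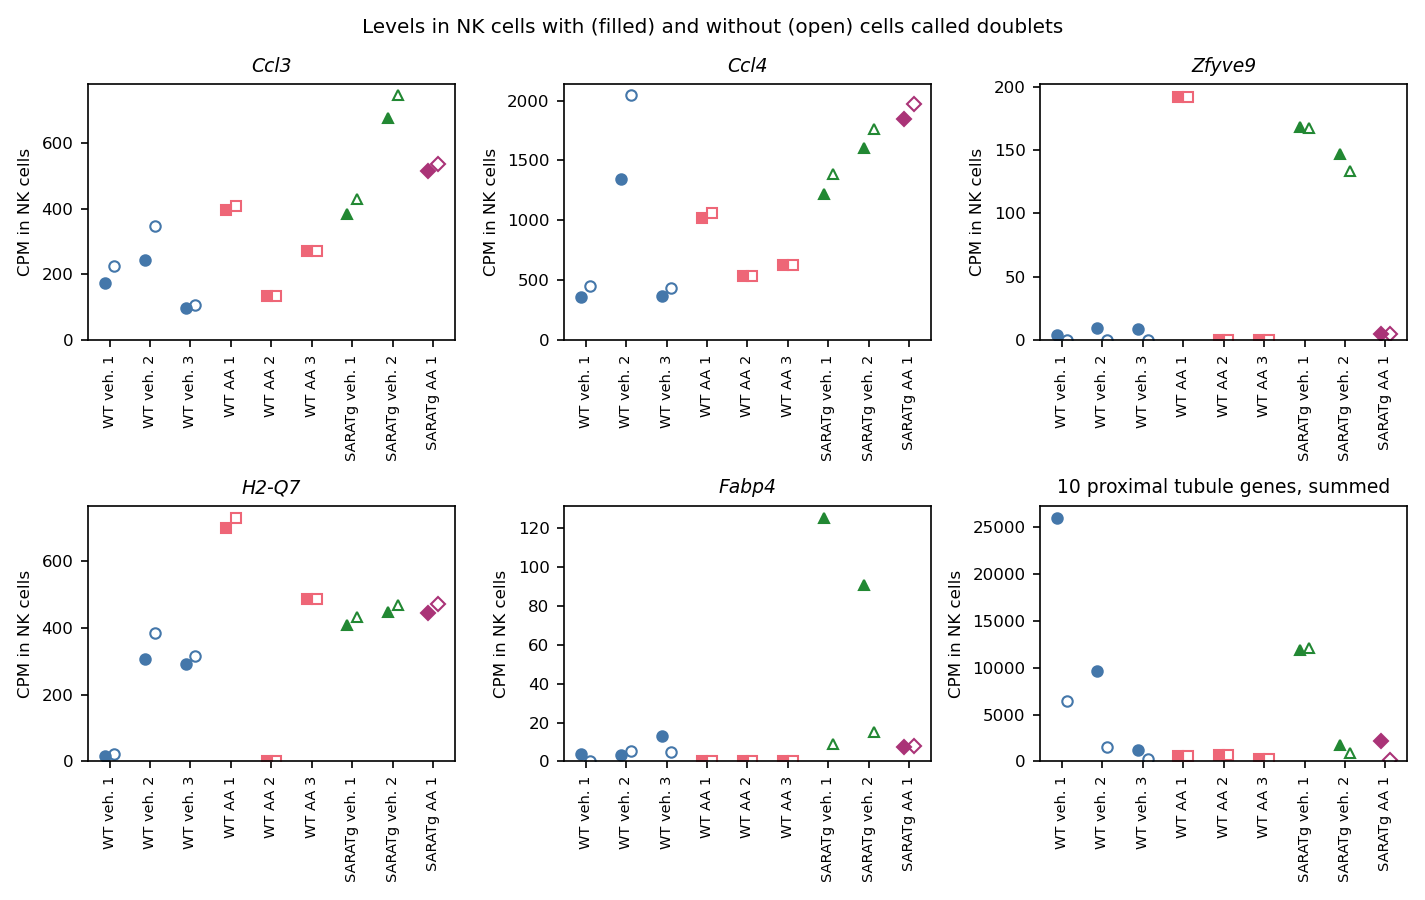
Levels in NK cells (CPM) of Ccl3, Ccl4, Zfyve9, H2-Q7 and Fabp4 and the sum of 10 proximal tubule genes in each kidney library, with all NK cells (filled) and without cells called doublets (open). AA is aristolochic acid and veh. vehicle. Fabp4 drops from 125 and 90.7 CPM to 9.16 and 15.4 CPM in the SARATg vehicle libraries, while Ccl3 stays at 431 and 746 CPM. Fabp4, a fatty acid binding protein gene in no list, was chosen after its values were seen, and its level over all kept cells exceeds that in NK cells.

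Genes of type 1 innate lymphoid cells and of tissue residency were lower after aristolochic acid in some members. Of 11 tested, 0 were higher and 3 lower at an unadjusted p under 0.05 (median log2 fold change -1.07, beside 9.18% of all genes on the lower side), and 0 passed in SARATg. The 3 were Tmem176a, Tmem176b and Ckb. Without doublet calls the 15 listed genes summed to 1855, 1183 and 561 CPM in WT vehicle and 532, 307 and 429 CPM in WT aristolochic acid, without overlap, while the 10 of these that serve as markers of type 1 innate lymphoid cells overlapped, at 1065, 566 and 219 CPM and 220, 160.3 and 294 CPM. The 15 genes summed to 307 to 1995 CPM in all NK cells, 1292 to 3678 CPM in proximal tubule cells and 1465 to 2636 CPM over all kept cells. The part of other-cell RNA in these sums and in the 3 genes was not tested. Tmem176a, a membrane protein gene also expressed outside lymphocytes, had 475, 269 and 109 CPM in WT vehicle and 78.1, 40.1 and 23.5 CPM in WT aristolochic acid (-2.28 on the log2 scale, edgeR adjusted p = 0.234). Its level over all kept cells had a median of 566 CPM, above that in the NK cells, and it moved with the tubule RNA given above. Rgs1, a regulator of chemokine signaling raised in resident lymphocytes, had 419, 345 and 105 CPM in WT vehicle, 194, 80.2 and 70.5 CPM in WT aristolochic acid and 99.9 and 206 CPM in SARATg vehicle (-1.07 after aristolochic acid, edgeR adjusted p = 0.399).

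A group of proliferation genes was read cell by cell after thinning to 1000 UMIs. At least 2 UMIs of the 26 genes were found in 16.2%, 25.4% and 23.9% of NK cells in WT vehicle and in 24.1%, 16% and 21.9% in WT aristolochic acid. The means were 21.8% ± 4.97 and 20.6% ± 4.17 (SD, n = 3 each), and the groups overlapped (exact permutation p = 0.6, adjusted 0.75). The difference of -1.2 percentage points changed its direction in 4 of 10 alternatives, being 9.56 without thinning, 5.92 with the stricter rule, 1.13 without WT aristolochic acid 2 and 0.59 without WT vehicle 2, and was -2.91 without the library labelled WT aristolochic acid 1. The 5.92 uses only the library labelled WT aristolochic acid 1 (29.4% of 17 cells) as the treated group. Under the stricter rule WT aristolochic acid 2 and 3 had 9 and 0 cells, below the minimum of 10. SARATg vehicle libraries had 25.2% and 16.6% and the SARATg aristolochic acid library 19.7%. T cells of the same libraries had 21% to 33.5%. Without thinning the NK shares were 58.7% to 84.4%. Mki67, which marks dividing cells, was at 0, 95.1 and 69.8 CPM in WT vehicle and 2.37, 13.4 and 5.88 CPM in WT aristolochic acid (edgeR adjusted p = 0.376), and was seen in at most 5.08% of NK cells of a library. The treated values lie below the level that 3 counts stand for in these libraries (7.1, 40.1 and 17.6 CPM), so a fall cannot be read from them. Of 17 tested members 0 were higher and 3 lower after aristolochic acid (median log2 fold change -1.01, beside -0.02 and 9.18% lower over all genes) at an unadjusted p under 0.05. In SARATg 1 was higher and 0 lower (median -0.59, beside -0.04 and 1.61% higher over all genes).

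Aristolochic acid forms DNA adducts, so p53 target genes were looked at as well. In NK cells of the library labelled SARATg aristolochic acid 1 the 16 targets summed to 921 CPM, against 333 to 502 CPM in the other libraries. Without doublet calls the sums were 776 CPM and 327 to 494 CPM. The next 3 genes are named because they were highest in that library. The share of all genes that were highest there was not counted. Zfyve9 goes against the label of that library, and Xist and the Y-linked genes showed the female pattern there. Gdf15, a stress cytokine gene, was at 124 CPM there against 0 to 12.7 CPM elsewhere, and Cdkn1a, the cell cycle inhibitor gene, at 100.2 CPM against 9.46 to 56.7 CPM. Ccng1 was at 124 CPM against 24.2 to 80.2 CPM. Without doublet calls Gdf15 and Cdkn1a were at 73.2 and 68.4 CPM, and proximal tubule cells of that library had 1027 and 774 CPM. In the WT aristolochic acid libraries the NK cells did not share this, with Cdkn1a at 9.46, 26.7 and 29.4 CPM against 41.5, 22.2 and 56.7 CPM in WT vehicle. Cdkn1a in proximal tubule cells was at 23.9, 8.07 and 343 CPM in WT vehicle and 319.8, 205 and 315 CPM in WT aristolochic acid. In SARATg vehicle it was at 16.6 and 22.6 CPM. WT vehicle 3 thus lay nearer to the treated libraries, as for the summed targets given at the start, and the cause was not tested. Of 8 tested targets 1 was higher after aristolochic acid at an unadjusted p under 0.05, beside 3.96% of all genes (Bax, 121, 91.9 and 161 CPM in WT vehicle and 192, 174 and 194 CPM in WT aristolochic acid, edgeR adjusted p = 0.351) and 0 were in SARATg.

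Interferon-stimulated genes, which report exposure to interferons, were read next. Of 19 tested, 2 were higher and 1 lower after aristolochic acid at an unadjusted p under 0.05 (median 0.5, beside 3.96% of all genes higher and 9.18% lower), and 1 was higher in SARATg (median 0.04, beside 1.61%). The latter was Bst2, tetherin, with 26.4, 19 and 26.2 CPM in WT vehicle, 63.4 and 95.3 CPM in SARATg vehicle and 79.5 CPM in the SARATg aristolochic acid library (1.74 on the log2 scale, edgeR adjusted p = 1). Its level over all kept cells was higher than in NK cells (median 179 CPM), and the tested endothelial and macrophage markers had median log2 fold changes of 6.59 and 1.76 in the same comparison, whose part was not tested. The summed macrophage markers overlapped, at 33.9, 2561 and 2981 CPM in WT vehicle and 3821 and 2489 CPM in SARATg vehicle. Isg15 stood at 18.9, 9.51 and 26.2 CPM and 63.9, 40.1 and 11.8 CPM and Slfn2 at 128, 146 and 201 CPM and 215, 241 and 264 CPM in WT vehicle and WT aristolochic acid. Ly6a, the lower gene, was at 521 CPM in WT vehicle 1 and at 178 CPM or less elsewhere. Immediate early genes, which also respond to tissue digestion, were tested for 20 members, of which 1 was higher and 2 lower after aristolochic acid (beside 3.96% and 9.18% of all genes). Jun was at 147, 726 and 91.7 CPM in WT vehicle, highest in library 2, and at 99.4, 107 and 88.1 CPM in WT aristolochic acid. Of 17 actin and migration genes 1 was higher after aristolochic acid (beside 3.96% of all genes), Tmsb10, with 2128, 2431 and 3326 CPM and 3336, 4757 and 6639.8 CPM (0.99 on the log2 scale, edgeR adjusted p = 0.273).

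Arl4d and Cd72, outside the lists of NK function, were chosen after their values were seen. They are 2 of the 365 genes (55 higher) that were called without WT vehicle 3. Arl4d, a small GTPase of the ARF family, had 30.2, 44.4 and 56.7 CPM in WT vehicle and 135, 93.5 and 123 CPM in WT aristolochic acid, with no overlap (log2 fold change 1.59, SE 0.33, edgeR adjusted p = 0.234). T cells had 17.5, 20.9 and 4.26 CPM of Arl4d in WT vehicle and 3.79, 4.47 and 4.2 CPM in WT aristolochic acid. Cd72, an inhibitory lectin-like receptor also found on B cells and macrophages, had 37.7, 57 and 61.1 CPM and 168, 120.3 and 82.3 CPM (1.4 on the log2 scale, SE 0.34, edgeR adjusted p = 0.234). Macrophages had 137 to 566 CPM of Cd72, and the macrophage markers given above moved with it in the library labelled WT aristolochic acid 1. With NK cells that held C1q UMIs left out the log2 fold change of Cd72 was 1.4, and 1.23 without doublet calls. SARATg vehicle libraries had 60.3 and 63.5 CPM of Arl4d and 58.7 and 62 CPM of Cd72, beside the WT vehicle values above. Without the library labelled WT aristolochic acid 1 the log2 fold changes were 1.44 for Arl4d and 0.98 for Cd72. Without WT vehicle 3 the adjusted p was 0.0136 for Arl4d and 0.0319 for Cd72, and with all libraries neither was called.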

How the data were processed

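Per the labels, GFP-positive cells were sorted from digested kidney and made into 10x Genomics 3′ v3 libraries. The authors made the deposited UMI counts per gene and cell with Cell Ranger (3.0.2, also in the file headers), on mm10 by the submitters' processing notes, which also name Seurat 2.3.4. The files listed 31053 genes per library. Kidney libraries held 28660151 to 137093834 UMIs, and the NK cells of a library 74841 to 678931, so that 3 counts stand for 4.42 to 40.1 CPM. Members and gene lists were chosen with earlier results of these data known. UMIs were summed over the NK cells of each library with at least 10 such cells and tested with edgeR (4.0.16) in R 4.3.3, by a quasi-likelihood fit of 4 groups over all 9 kidney libraries with TMM scaling, its expression filter and Benjamini-Hochberg adjustment at 0.05. DESeq2 (1.42.0) was an alternative. Shares were compared by exact two-sided permutation tests over libraries (scipy 1.17.1), adjusted over 5 tests. Doublets were called with scrublet in scanpy 1.11.5 at 0.8% per 1000 cells and were kept except where stated.

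Genes were named when in a list of NK function or cell markers, and otherwise only when past the adjusted p, without overlap between groups, at 50 CPM or more and at or above the level over all kept cells, which none was. Exceptions are said beside the genes. Of 361 list genes, 360 were found under their symbol, and Cd244a is listed as Cd244. T cells had at least 2 CD3 UMIs, B cells at least 2 Cd79a UMIs, macrophages at least 3 UMIs of the C1q genes, and proximal tubule cells at least 2 UMIs of Slc34a1, Lrp2 and Miox and none of Ptprc. Intervals are exact (Clopper-Pearson) at 95% and cover counting error only. The fits were also run on simulated counts in which 200 genes differed by 2 on the log2 scale, where 10.3% of calls were false for aristolochic acid and 7.76% for SARATg.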

Additional observations from a re-analysis of the deposited data

Results flagged for a closer look

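Skin libraries of the same series, which no comparison above uses, also held cells that pass the NK rule, 161 of 30085 kept cells. They made up 0.123%, 0.128% and 0.906% of kept cells in the 3 libraries of WT mice injected with PBS and 0.51%, 0.923% and 0.84% in the 3 of WT mice injected with bleomycin. The library of SARATg mice with PBS had 0.329% and that with bleomycin 0.232%. The WT groups overlapped, and the difference was not tested.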

How the results depend on the processing

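Of 268 values under alternative settings, 241 counted as unchanged. For shares and proliferation this means the same direction only, and for counts of called genes an identical count. For single genes it means the same direction and no adjusted p under 0.05. The cause of the other changes was not tested. For aristolochic acid, the difference in the NK share of kept cells turned to -0.0223 percentage points with a stricter rule (at least 2 receptor UMIs and no T cell receptor UMI), -0.113 with stricter cell filters and -0.121 without the first and second WT vehicle libraries, and ran from -0.179 to 0.257 when 1 library was left out. For SARATg it ran from 1.6 to 2.16 when 1 library was left out and was 0.438 with the stricter rule. The share of Ptprc-positive cells ran from -3.1 to -1.14 and the log2 NK to T ratio from -3.45 to -1.85 when 1 library was left out. The proliferation difference was 9.56 percentage points without thinning and 5.92 with the stricter rule. The latter leaves only the library labelled WT aristolochic acid 1 in the treated group. When 1 library was left out the difference ran from -4.03 to 1.13, positive without WT aristolochic acid 2 (1.13) or WT vehicle 2 (0.59).

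Genes called for aristolochic acid numbered 0, but 75 with DESeq2, 6 with stricter cell filters, 2 without cells with C1q UMIs (chosen after seeing the data), 1 with the compared groups alone, 2 with genotype plus treatment, and 0 to 365 when 1 library was left out (365 without WT vehicle 3, 1 without SARATg vehicle 1). For SARATg they numbered 0, but 1 with the stricter rule, 1 with the compared groups alone, 3 with genotype plus treatment and 0 to 5 when 1 library was left out (5 without SARATg vehicle 1, which leaves 1 library assumed to vary like the others, 2 without WT vehicle 3 and 1 without the library labelled WT aristolochic acid 1). With the stricter rule the log2 fold changes in SARATg were -0.02 for Ccl4 and 0.06 for Ccl3. Genotype plus treatment, which uses the library labelled SARATg aristolochic acid 1, gave 1.76 for Zfyve9. The adjusted p of Zfyve9 in edgeR was 0.0466 with the compared groups alone, which also leave out the library labelled WT aristolochic acid 1. The stricter rule left 0 NK cells in WT aristolochic acid 3, so the NK to T ratio has no value there.

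Deviations of same-numbered WT libraries correlated at -0.23, -0.01 and 0.03, and those of differently numbered ones at -0.14 to 0.17. Pairing by replicate number was thus not seen, but 3 libraries per group are too few to exclude it. With the replicate block, 45 genes were called for aristolochic acid (6 higher, 39 lower, 3569 tested) and 0 for SARATg. The block cannot change a difference of mean shares.

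With 25 to 201 NK cells per library, levels under about 4.42 to 40.1 CPM could not be read.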
